A study of Mus musculus with 2 samples.

Results

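The laminin chain genes Lama4, Lama5, Lamb1, Lamb2 and Lamc1, the nidogen genes Nid1 and Nid2, and the perlecan gene Hspg2 were followed in single-cell transcriptomes of mouse tumours. The set was chosen by gene name as the laminins, nidogens and perlecan of the vascular basement membrane, with earlier results of these data known. It comprises 8 of the 9127 gene symbols listed in both count tables. The study compared Cdh5-cre Myct1 fl/fl mice, called the Myct1 knockout here, with wild-type (WT) mice, all of strain C57BL/6. In the knockout a Cre driven by the Cdh5 promoter, which is active in endothelial cells, recombines floxed Myct1. Each genotype had 1 droplet library of dissociated tumour tissue pooled from 4 mice, prepared with a 10X Genomics 3′ kit after digestion with Collagenase-II, Dispase-II and Deoxyribonuclease. No source used here gives the tumour model, the age of the mice, any cell sort, the floxed exon, or whether WT mice carried the Cre or the floxed allele.

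The knockout library held 145331950 UMIs in 10700 barcodes and the WT library 115519153 UMIs in 10880 barcodes, of which 8074 and 7885 were kept as cells. With 1 library per genotype no difference between genotypes was tested, and genotype, library and batch cannot be told apart. Intervals below are exact 95% intervals for counting error only. Myct1 had no row in the knockout table, where every listed gene reached at least 4 UMIs in some barcode, against 962 UMIs in WT endothelial cells. Cells were assigned by marker genes, none of them a member. The gates held 311 knockout and 553 WT endothelial cells, 14 knockout and 69 WT mural cells, 165 knockout and 2898 WT fibroblasts, and 6511 knockout and 3594 WT Krt8/Krt18 positive cells. The labels name endothelial cells as the source, but the endothelial gate held 3.85% of the knockout and 7.01% of the WT cells kept. The libraries shared 218 barcodes, and these made up 59 of the 165 knockout fibroblasts at a median of 555 UMIs, so fibroblast values are also given without them.

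Basement membranes are thin sheets of matrix on which endothelial and epithelial cells rest and which enclose pericytes. Laminin is secreted as a trimer of an alpha, a beta and a gamma chain, and its polymer is linked to the collagen IV network by nidogens and perlecan. In blood vessels the alpha4 and alpha5 chains are both made by endothelium, and they are bound by integrins and by other receptors on endothelial cells and leukocytes.

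Lama4 (ENSMUSG00000019846.11) encodes the alpha4 chain and lies on the plus strand at chr10:38965515-39110188 of GRCm38. Lama5 (ENSMUSG00000015647.9), for the alpha5 chain, lies on the minus strand at chr2:180176373-180225859. The beta chain genes are Lamb1 (ENSMUSG00000002900.16) at chr12:31265234-31329644 and Lamb2 (ENSMUSG00000052911.9) at chr9:108479736-108490530, both on the plus strand. Lamc1 (ENSMUSG00000026478.14), for the gamma1 chain, lies on the minus strand at chr1:153218922-153332786. Nid1 (ENSMUSG00000005397.8) lies at chr13:13437551-13512269, Nid2 (ENSMUSG00000021806.4) at chr14:19751265-19811787 and Hspg2 (ENSMUSG00000028763.17) at chr4:137468769-137570630, all on the plus strand. All 8 have long transcripts, whose longest annotated forms measure 4876 bases in Nid2, 5629 in Lamb2, 5784 in Lamb1, 6046 in Lama4, 6091 in Nid1, 7622 in Lamc1, 11388 in Lama5 and 14187 in Hspg2. This matters below because library ratios followed transcript length.

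A promoter sequence was given for 5 of the 8 genes, and 4 are shown for the members on which the comparison turns. Lamb1 and Lamb2 are the paralogues of nearest transcript length, and Lama5 and Hspg2 are the longest members. Each run is the 250 bases before the RefSeq start of the gene in GRCm38.p6, read 5′ to 3′ on the gene's strand, with GC boxes (GGGCGG on either strand) in capitals.
Lamb1, chr12:31265043-31265292, plus strand: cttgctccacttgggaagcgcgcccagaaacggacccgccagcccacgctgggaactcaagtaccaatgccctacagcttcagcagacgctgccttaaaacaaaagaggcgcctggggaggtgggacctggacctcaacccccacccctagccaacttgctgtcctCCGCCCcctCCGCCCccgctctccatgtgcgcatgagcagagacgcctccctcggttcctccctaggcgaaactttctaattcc
Lamb2, chr9:108479612-108479861, plus strand: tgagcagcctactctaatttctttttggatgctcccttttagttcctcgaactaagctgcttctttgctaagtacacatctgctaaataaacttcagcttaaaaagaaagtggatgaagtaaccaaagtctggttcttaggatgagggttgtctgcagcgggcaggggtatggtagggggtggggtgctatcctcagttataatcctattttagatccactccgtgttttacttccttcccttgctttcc
Lama5, chr2:180225860-180226109, minus strand: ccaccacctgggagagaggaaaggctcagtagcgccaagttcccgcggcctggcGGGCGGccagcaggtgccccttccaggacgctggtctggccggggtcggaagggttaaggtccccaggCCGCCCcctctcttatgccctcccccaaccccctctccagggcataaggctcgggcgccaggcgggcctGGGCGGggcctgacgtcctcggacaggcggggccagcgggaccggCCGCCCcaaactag
Hspg2, chr4:137468553-137468802, plus strand: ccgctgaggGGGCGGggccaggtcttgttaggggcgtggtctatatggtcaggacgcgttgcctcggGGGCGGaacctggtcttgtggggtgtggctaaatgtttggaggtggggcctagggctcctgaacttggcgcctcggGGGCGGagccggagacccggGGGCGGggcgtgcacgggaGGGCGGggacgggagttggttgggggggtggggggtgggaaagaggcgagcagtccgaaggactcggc
The window of Lamb2 held 0 GC boxes at 43.6% G and C, against 2 at 62.0% in Lamb1, 4 at 72.4% in Lama5 and 5 at 70.0% in Hspg2. Nid1, the fifth gene with a promoter, held 1 GC box at 64.4% G and C. The RefSeq starts differ from the gene starts given above, so the windows sit differently against the gene spans. Those of Lamb1, Lamb2, Nid1 and Hspg2 run into the span, and that of Lama5 does not. For Lamb2 the gene start at 108479736 lies inside the window chr9:108479612-108479861. Of 32851 promoters searched over the same 250 bases, 32.7% held at least 1 GC box. The letters CCGGAAG (ETS-type, in 6.91% of promoters) and TGANTCA (AP-1-type, in 6.75%) occurred on neither strand in any of the 5 windows.

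The members divided the tumour cells by chain. Levels are counts per 1000000 UMIs (CPM) in the summed cells of a class, and each gene is compared with itself across classes. The alpha chains shared the endothelium and differed in the other classes. Lama4 was a gene of endothelium and stroma, and Lama5 a gene of endothelium and of the Krt8/Krt18 positive cells. Lama4 stood at 342 CPM (interval 320 to 365) in knockout and 475 CPM (454 to 497) in WT endothelial cells. It stood at 152 CPM in knockout and 187 CPM in WT fibroblasts, and at 125 CPM in knockout and 214 CPM in WT mural cells. In Krt8/Krt18 positive cells Lama4 was near 0, with 0.84 CPM in the knockout and 1.11 CPM in WT, and 1.07% of knockout and 1.61% of WT cells held a UMI.

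Lama5 stood at 59.2 CPM (50.2 to 69.4) in knockout and 125 CPM (114 to 137) in WT endothelial cells, and at 88.2 CPM in knockout and 124 CPM in WT Krt8/Krt18 positive cells. In mural cells it had 0 UMIs in the knockout and 12 UMIs, or 35.2 CPM, in WT. The exact interval for 0 UMIs in the 14 knockout cells reached 41.8 CPM, above the WT level. Among the WT classes Lama5 was lowest in fibroblasts, at 3.52 CPM. It reached 17.3 CPM in knockout fibroblasts, whose interval overlapped that of knockout mural cells. The Krt8/Krt18 positive class was thus above the endothelial class in the knockout, while in WT the intervals of these classes overlapped.

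Lamb1 and Lamc1, for the beta1 and gamma1 chains that most laminins of vessels and epithelia contain, were found in all 4 classes. Lamb1 stood at 299 CPM in knockout and 400.4 CPM in WT endothelial cells, 193 CPM in knockout and 183 CPM in WT fibroblasts, 101.9 CPM in knockout and 231 CPM in WT mural cells, and 129.8 CPM in knockout and 136 CPM in WT Krt8/Krt18 positive cells. Lamc1 stood at 295 CPM in knockout and 484 CPM in WT endothelial cells, 252 CPM in knockout and 399 CPM in WT fibroblasts, 147 CPM in knockout and 299 CPM in WT mural cells, and 89.9 CPM in knockout and 113 CPM in WT Krt8/Krt18 positive cells. Both were highest in endothelial cells in either library, but for Lamc1 the knockout interval overlapped that of fibroblasts.

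Lamb2, for the beta2 chain that replaces beta1 in some laminins, followed the stroma instead. It stood at 152 CPM in knockout and 129 CPM in WT fibroblasts, and at 90.6 CPM in knockout and 219.7 CPM in WT mural cells. Endothelial cells had 33.5 CPM (26.8 to 41.3) in the knockout and 89.6 CPM (80.4 to 99.45) in WT, and Krt8/Krt18 positive cells 9.76 CPM in the knockout and 13.7 CPM in WT. WT mural cells were above WT fibroblasts, while the wide intervals of the 14 knockout mural cells overlapped those of knockout fibroblasts and knockout endothelial cells.

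The nidogens also separated the classes. Nid1 was led by fibroblasts, at 415 CPM in the knockout and 1066 CPM in WT, followed by mural cells at 385 CPM in the knockout and 932 CPM in WT and by endothelial cells at 349 CPM (327 to 372) in the knockout and 676 CPM (650.2 to 702) in WT. In the knockout the intervals of neighbours in this order overlapped, and in WT they did not. Nid2 was largely endothelial, at 300.03 CPM (279 to 322) in the knockout and 387 CPM (368 to 407) in WT, against 45.3 CPM in knockout and 67.4 CPM in WT mural cells and 11.1 CPM in knockout and 14.9 CPM in WT fibroblasts. Both nidogens were near 0 in Krt8/Krt18 positive cells, where Nid1 had 0.68 CPM in the knockout and 2.83 CPM in WT and Nid2 had 0.16 CPM in the knockout and 0.22 CPM in WT.

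Hspg2 encodes perlecan, a heparan sulfate proteoglycan that binds laminin, collagen IV and growth factors. It stood at 746 CPM (713 to 780) in knockout and 1689 CPM (1649 to 1730) in WT endothelial cells, and at 548 CPM in knockout and 862 CPM in WT fibroblasts. Mural cells had 226 CPM in the knockout and 381 CPM in WT, and Krt8/Krt18 positive cells 178 CPM in the knockout and 280.1 CPM in WT. Endothelial cells led in both libraries, and 90.7% of knockout and 98.2% of WT endothelial cells held an Hspg2 UMI.

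**Figure D1:**
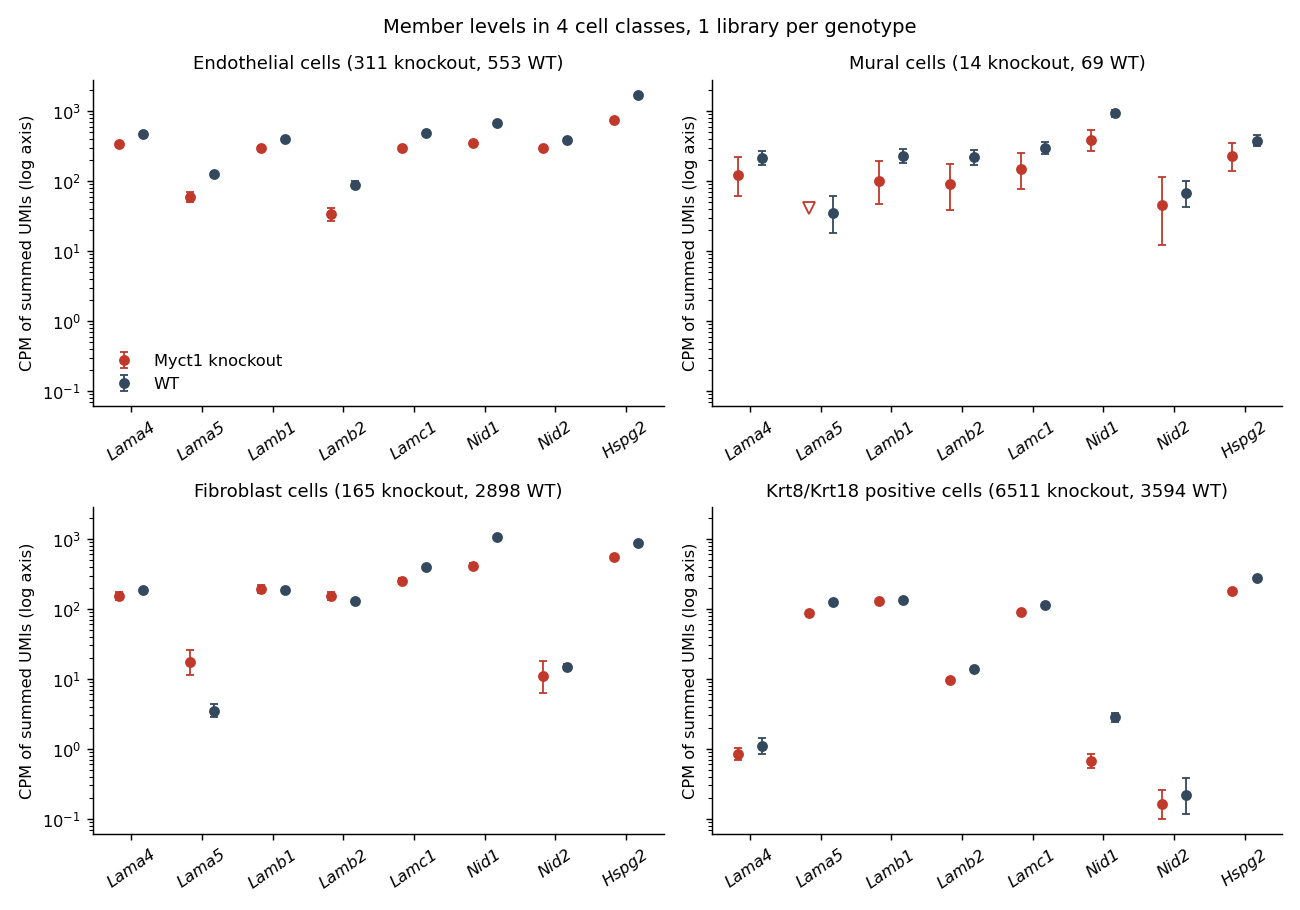
Level of each member (x axis) in the Myct1 knockout library (red, left of each pair) and the WT library (dark, right), in CPM of the summed UMIs of each of 4 cell classes on a log axis. Points are 1 library each, bars are exact 95% Poisson intervals, and the open triangle is the upper bound for Lama5 in knockout mural cells, where 0 UMIs were counted. On this scale all 8 members lie lower in knockout than in WT endothelial cells, whereas 4 of them lie above 0 relative to genes of like length, and Lama4, Nid1 and Nid2 lie near 0 in Krt8/Krt18 positive cells.

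In endothelial cells, where the Cre is expressed, every member was lower in the knockout library when scaled to its total UMIs, with all 8 intervals below 0 on the log2 scale, though Lama4, Lamb1, Lamc1 and Nid2 lay above 0 relative to genes of like length. With TMM scaling, which sets the endothelial zero at -0.32 on this scale, the intervals of Lamb1 (-0.10) and Nid2 (-0.04) included 0 and 4 members were lower. A gene was counted as lower or higher where the libraries differed at least 1.5-fold, the interval excluded no difference, and at least 20 UMIs were counted over both. By this rule 5 of the 8 members were lower and 0 higher, among 8185 genes of which 34.9% were lower and 10.4% higher. Lamb2 had the largest difference, with a log2 ratio of knockout over WT of -1.42 (-1.78 to -1.08), a level 2.68-fold higher in WT. Hspg2 followed at -1.18 (-1.25 to -1.11), Lama5 at -1.08 (-1.35 to -0.81), Nid1 at -0.95 (-1.06 to -0.84) and Lamc1 at -0.71 (-0.84 to -0.59). Lama4 at -0.47, Lamb1 at -0.42 and Nid2 at -0.37 were lower by less than the fold used. The median over the members was -0.83, against -0.35 over all genes measured. In endothelial cells the 12 fibroblast markers summed to 39.6 CPM in the knockout and 329 CPM in WT, with Pdgfra, Lum, Pi16 and Mfap5 at 0 in the knockout, and the 11 mural markers to 129 CPM in the knockout and 255 CPM in WT. The part of stromal RNA in the ratios was not tested.

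Transcript length moved with these ratios. Across 7863 endothelial genes, which are no independent replicates of each other, length and log2 ratio had a rank correlation of -0.50, and the median ratio was 0.43 for transcripts under 1000 bases and -0.80 for those of 8000 bases or more. Each ratio was therefore also expressed relative to the median ratio of the 300 genes of nearest length, which in endothelial cells lay between -0.81 for Hspg2 and Lama5 and -0.63 for Nid2. On this relative scale 1 of the 8 members was lower and 0 higher, among 7872 genes of which 10.7% were lower and 14.7% higher. The remaining gene was Lamb2, at -0.71 (-1.06 to -0.37). Hspg2 was at -0.37 (-0.44 to -0.29), Nid1 at -0.27 (-0.38 to -0.16) and Lama5 at -0.27 (-0.54 to -0.00), all lower than genes of like length by less than the fold used. Lamc1 was at 0.03, with an interval on both sides of 0, and Lama4 at 0.18, Nid2 at 0.27 and Lamb1 at 0.27 had intervals above 0. The members thus did not share 1 shift: relative to genes of like length they ran from Lamb2 at -0.71 to Lamb1 at 0.27, with a median of -0.12.

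**Figure D2:**
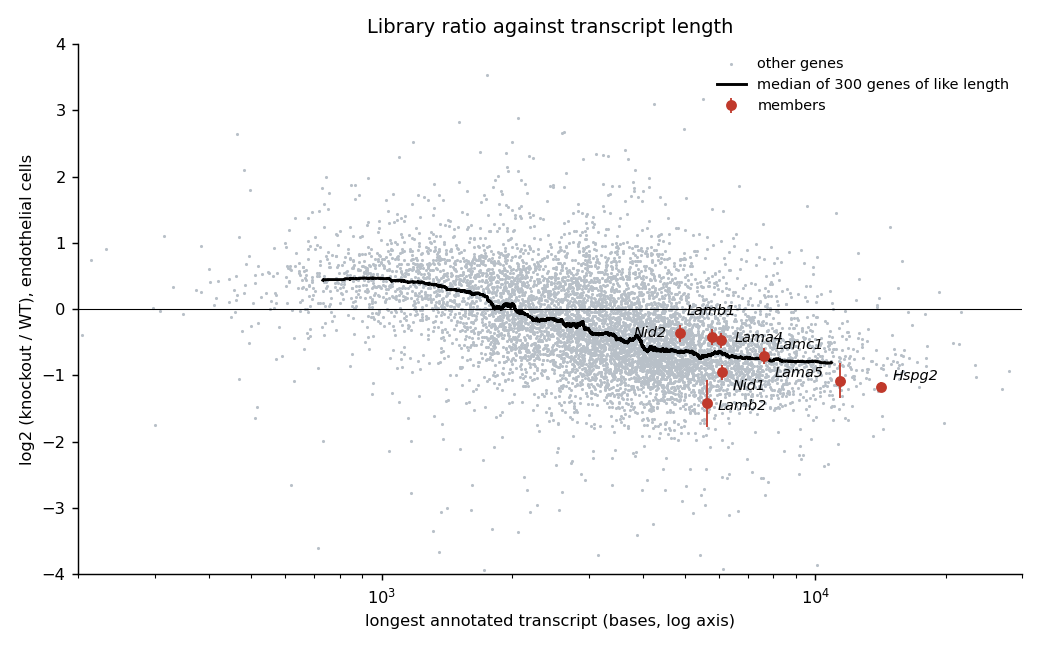
Log2 ratio of knockout over WT in endothelial cells (y axis) against the longest annotated transcript in bases (x axis, log scale). Grey points are the other genes with at least 20 UMIs, the black line is the running median of 300 genes, red points are the 8 members with exact 95% intervals, and 22 points lie outside the axes. Lamb2, at -1.42, lies below the line, whereas Lamc1, at -0.71, lies on it.

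**Figure D3:**
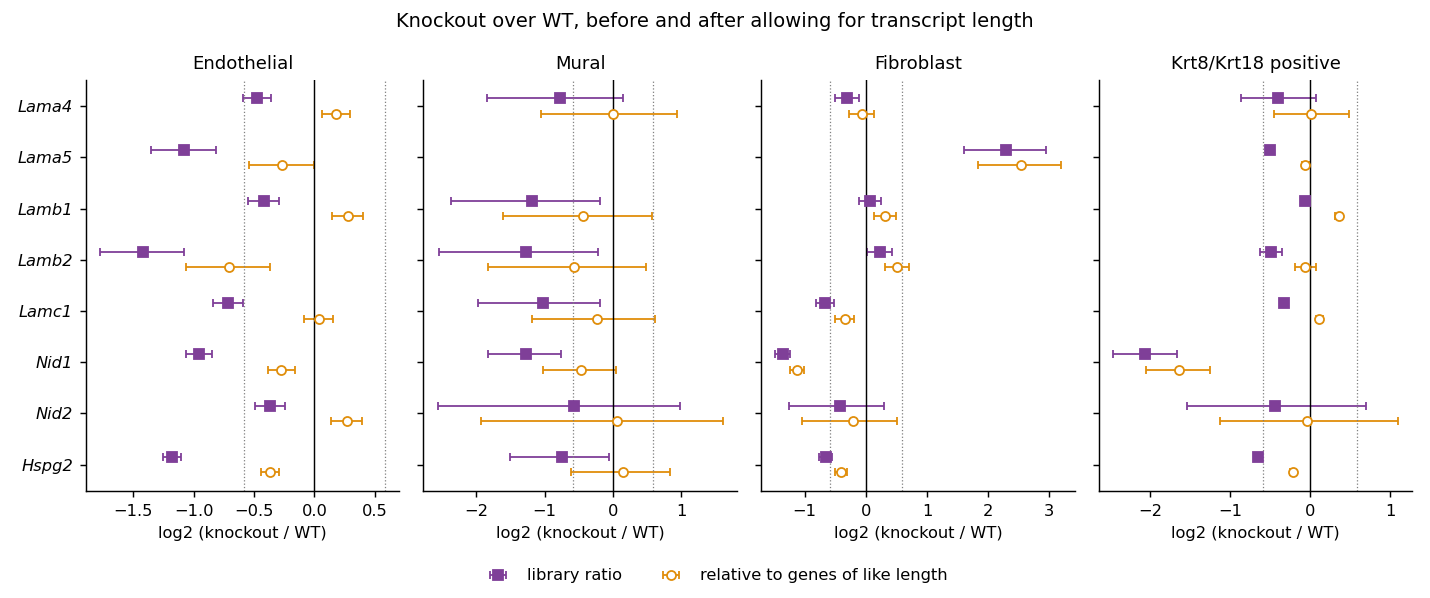
Log2 ratio of knockout over WT (x axis) for each member in 4 cell classes, as the library ratio (purple squares) and relative to genes of like length (open orange circles), with exact 95% intervals. Dotted lines mark 1.5-fold, and Lama5 has no point in mural cells, where the knockout had 0 UMIs. Most members move towards 0 on the relative scale, while Nid1 in fibroblasts stays at -1.13 and Lama5 in fibroblasts at 2.53.

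Because the libraries held different proportions of endothelial subtypes, the members were also compared within them. Tip-like cells, which lead sprouts, made up 47.3% of knockout and 27.3% of WT endothelial cells, and venous cells 13.5% of knockout and 35.8% of WT endothelial cells. Scaled to total UMIs, all 8 members were lower in the knockout in each of the tip-like, capillary, arterial and venous sets, with all 8 intervals below 0 in each set. Against genes of like length, Lama4, Lama5, Lamb1, Lamc1 and Nid2 lay above 0 in at least 1 of these sets. By the 1.5-fold rule 8 members were lower in tip-like cells, where 27.8% of 7585 genes were lower and 8.08% higher. In venous cells 7 were lower, against 17.5% of 6904 genes lower and 10.1% higher. In arterial cells 7 were lower, against 21.2% of 6258 genes lower and 8.82% higher, and in capillary cells 5, against 27.3% of 6319 genes lower and 9.62% higher. No member was higher in any of these sets. With the subtypes weighted equally 7 of the 8 were lower, since Lama4 (-0.66) and Nid2 (-0.67) then passed the fold.

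In the knockout, subtype levels differed most for Nid2. It stood at 376 CPM in knockout and 575 CPM in WT tip-like cells, at 288 CPM in knockout and 363 CPM in WT capillary cells, and at 219.8 CPM in knockout and 328 CPM in WT arterial cells. In venous cells it stood at 55.2 CPM in the knockout and 231 CPM in WT, a log2 ratio of -2.07 (-2.90 to -1.34), although the knockout level rests on 16 UMIs in 42 cells. Relative to genes of like length the venous ratio of Nid2 was -1.49 (-2.32 to -0.77), and those of Hspg2 (-0.98), Nid1 (-0.94) and Lama5 (-0.81) also passed the fold, which made 4 members lower among 6635 venous genes of which 7.85% were lower and 11.5% higher. In capillary cells 1 member, Lamb2 at -1.04, passed it, among 6071 genes of which 8.89% were lower and 12.6% higher. In tip-like cells 0 members passed, with 8.09% of genes lower and 11.3% higher, and in arterial cells 0, with 8.21% of genes lower and 11.4% higher. The differences between subtypes were not tested.

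Lama4, Lamb1, Lamc1, Nid1, Nid2 and Hspg2 were all highest in tip-like cells in both libraries. In the knockout the tip-like intervals of Lamb1, Lamc1, Nid1 and Hspg2 overlapped those of another subtype. Lama4 stood at 412 CPM in knockout and 669 CPM in WT tip-like cells, against 186 CPM in knockout and 337 CPM in WT venous cells. Lamc1 stood at 329 CPM in knockout and 643 CPM in WT tip-like cells, against 234 CPM in knockout and 379.6 CPM in WT venous cells. Lama5 and Lamb2 ran the other way in WT: Lama5 had 88.9 CPM in WT tip-like and 149 CPM in WT arterial cells, and Lamb2 had 44.1 CPM in WT tip-like and 123 CPM in WT arterial cells. In the knockout Lamb2 had 24.7 CPM in tip-like, 26.8 CPM in capillary, 57.3 CPM in arterial and 58.6 CPM in venous cells. Knockout Lama5 lay between 55.2 CPM in venous and 69.7 CPM in capillary cells, with overlapping intervals throughout. Perlecan was high in all subtypes, with Hspg2 between 524 CPM in venous and 832 CPM in tip-like knockout cells and between 1509 CPM in capillary and 1991 CPM in tip-like WT cells.

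**Figure D4:**
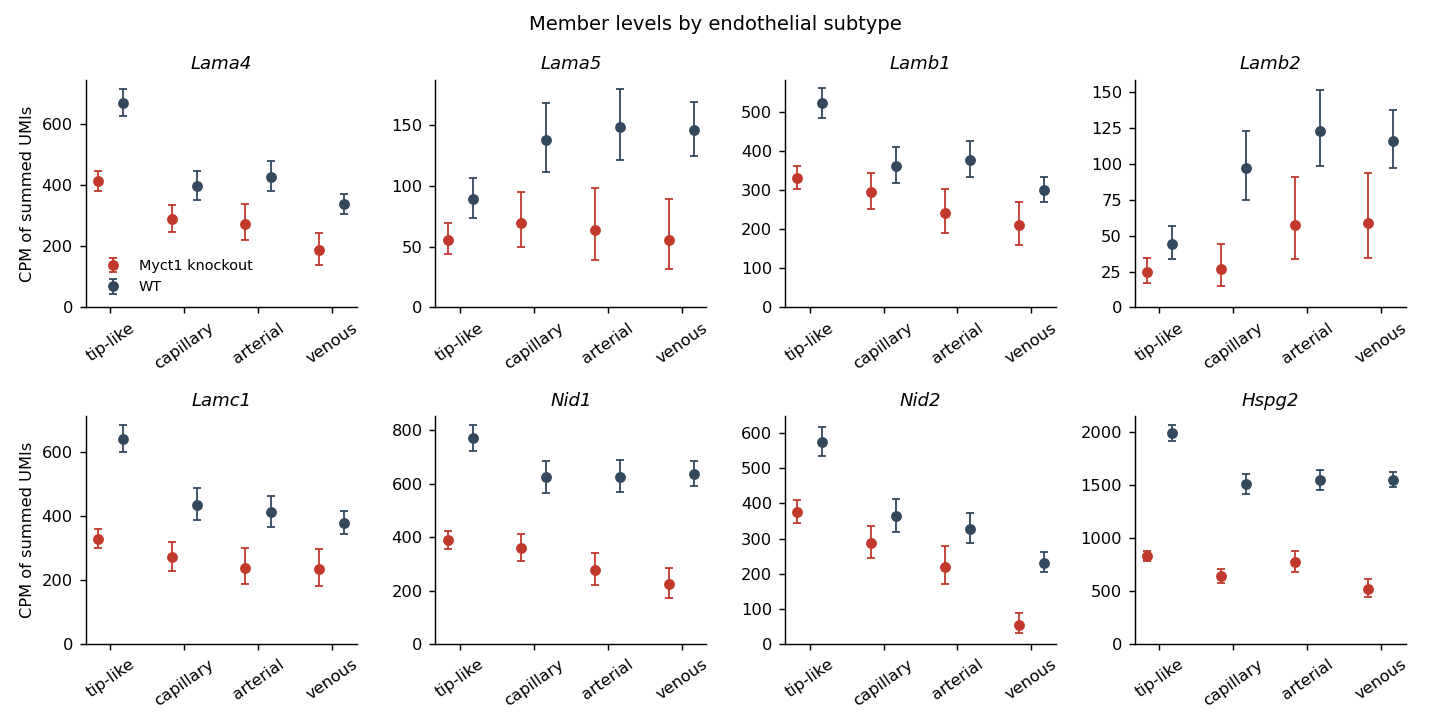
Level of each member (1 panel each) in tip-like, capillary, arterial and venous endothelial cells (x axis) of the knockout library (red, left of each pair) and the WT library (dark, right), in CPM of summed UMIs with exact 95% Poisson intervals. On this library scale every pair lies lower in the knockout, and the knockout venous level of Nid2, 55.2 CPM, lies farthest below the other knockout subtypes of that gene.

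The proportions of paralogues give comparisons within a cell set that need no scaling to the library total. Lamb1 and Lamb2 also have transcripts of nearly equal length. Lamb2 gave 87 of the 865 beta chain UMIs of knockout endothelial cells, or 10.1% (8.13 to 12.3), against 350 of 1915 in WT, or 18.3% (16.6 to 20.1). In capillary cells the proportion was 8.29% (4.71 to 13.3) in the knockout and 21.1% (16.7 to 26.0) in WT. In tip-like cells it was 6.93% in the knockout and 7.77% in WT, in arterial cells 19.1% in the knockout and 24.6% in WT, and in venous cells 21.8% in the knockout and 27.8% in WT, with overlapping intervals in each of these pairs. The beta2 share was lower in tip-like than in venous cells within either library, and the intervals of the libraries were apart in capillary cells. The part of the subtype mix in the endothelial share was not tested.

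For the nidogens the direction was the opposite. Nid2 gave 46.2% (43.8 to 48.7) of nidogen UMIs in knockout and 36.4% (34.96 to 37.9) in WT endothelial cells. Within tip-like cells it gave 49.2% (46.1 to 52.2) in the knockout and 42.7% (40.4 to 45.1) in WT, and within venous cells 19.8% (11.7 to 30.1) in the knockout and 26.6% (23.9 to 29.5) in WT. The median ratios of genes of like length were close, at -0.63 for Nid2 and -0.68 for Nid1, and the ratios relative to them were 0.27 for Nid2 and -0.27 for Nid1. Lama4 gave 85.2% (82.9 to 87.3) of the alpha4 and alpha5 UMIs in knockout and 79.2% (77.5 to 80.8) in WT endothelial cells, but 88.1% in knockout and 88.3% in WT tip-like cells. The medians of genes of like length were -0.65 for Lama4 and -0.81 for Lama5, and the ratios relative to them were 0.18 for Lama4 and -0.27 for Lama5.

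**Figure D5:**
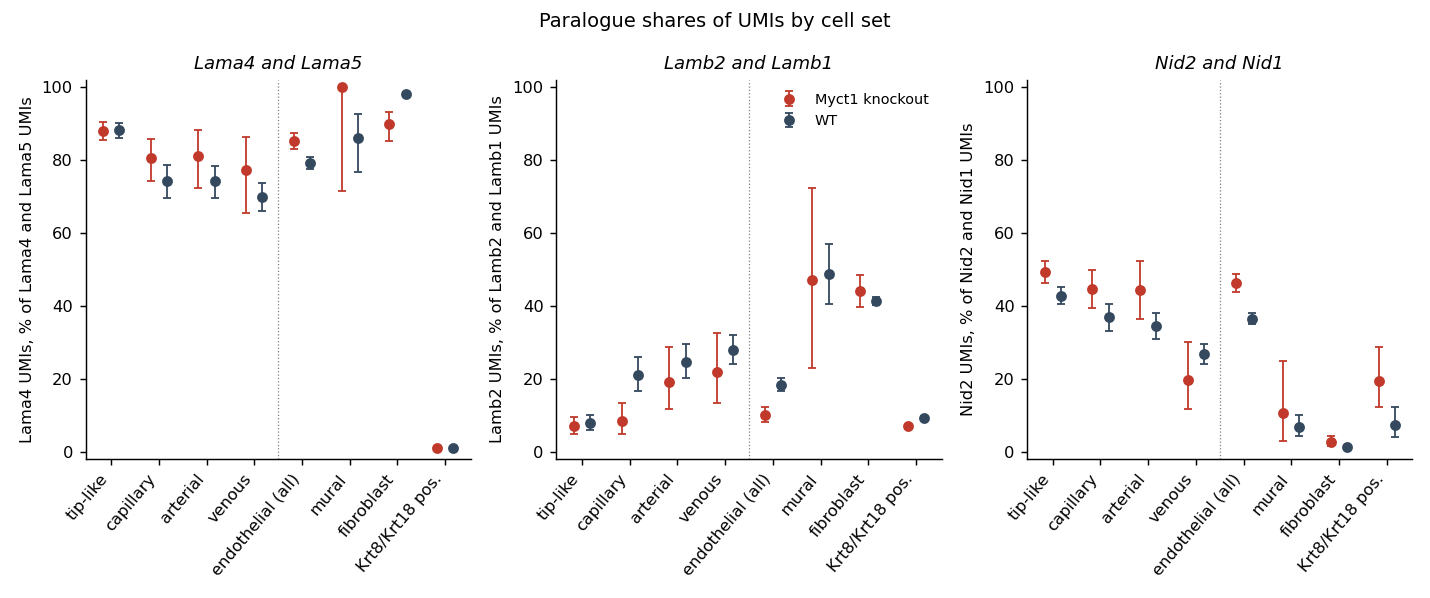
Share of UMIs (y axis, percent) given by Lama4 among Lama4 and Lama5, by Lamb2 among both beta chain genes, and by Nid2 among both nidogens, in 4 endothelial subtypes (left of the dotted line) and 4 cell classes (right of it). Red points, left of each pair, are the knockout library and dark points the WT library, with exact 95% Clopper-Pearson intervals. Lamb2 stands at 10.1% in knockout and 18.3% in WT endothelial cells, and Lama4 is under 1% in Krt8/Krt18 positive cells of either library.

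Detection of the chains in single cells was also compared. A UMI of an alpha chain (Lama4 or Lama5), of a beta chain and of Lamc1 was found together in 60.8% (55.1 to 66.2) of knockout and 66.7% (62.6 to 70.6) of WT endothelial cells. After each cell was thinned to 3000 UMIs, which left 277 knockout and 500 WT cells, the shares were 27.1% (21.9 to 32.7) in the knockout and 40% (35.7 to 44.4) in WT. At that depth 61.7% of knockout and 82.6% of WT endothelial cells held Nid1, 7.22% of knockout and 24.0% of WT cells held Lamb2, and 55.6% of knockout and 53.4% of WT cells held Nid2. As a background, 0.16% of knockout and 0.92% of WT Krt8/Krt18 positive cells held Nid1 at the same depth, and 0.05% of knockout and 0% of WT cells held Nid2. Thinning evens out depth but not the length trend. Relative to genes of like length the endothelial ratios were 0.18 for Lama4, 0.27 for Lamb1 and 0.03 for Lamc1. Those of Lama5 and Lamb2 were -0.27 and -0.71. The parts of length and subtype mix in the detection shares were not tested, and detection over all genes is not given. Among endothelial cells with at least 3 cycling markers, 57 in the knockout and 29 in WT, Hspg2 stood at 539 CPM in the knockout and 1193 CPM in WT, against 822 CPM in the knockout and 1738 CPM in WT among the others.

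Mural cells, the pericytes and smooth muscle cells around vessels, were too few in the knockout for close comparison. Of 7 members with 20 UMIs or more, 5 were lower and 0 higher, among 3641 genes of which 13.5% were lower and 8.05% higher. Nid1 had 34 UMIs in the 14 knockout cells and 318 UMIs in the 69 WT cells, a log2 ratio of -1.27 (-1.83 to -0.76). Lamb2 was at -1.28 (-2.54 to -0.23) on 8 knockout UMIs, Lamb1 at -1.18 (-2.36 to -0.19) on 9, Lamc1 at -1.02 (-1.98 to -0.18) on 13 and Hspg2 at -0.75 (-1.51 to -0.06) on 20. Relative to genes of like length 0 members were lower and 0 higher, among 3516 genes of which 5.49% were lower and 9.73% higher. Fibroblast markers summed to 4903 CPM in knockout and 6829 CPM in WT mural cells, and their part in these levels was not tested. When cells over more than 1 gate were left out, 6 knockout and 22 WT mural cells remained and 1 member was lower.

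Fibroblasts, which do not usually express Cdh5, had their largest ratios in Lama5 and Nid1. Nid1 stood at 415 CPM (382 to 450) in the knockout and 1066 CPM (1054 to 1079) in WT, a log2 ratio of -1.36 (-1.48 to -1.24). Lamc1 at -0.66 (-0.82 to -0.51) and Hspg2 at -0.65 (-0.76 to -0.55) were also lower, and Lama5 was higher, at 2.30 (1.598 to 2.95). These made 3 lower and 1 higher of 8 members, among 8801 genes of which 17.3% were lower and 16.4% higher. Lama4 (-0.30), Lamb1 (0.07), Lamb2 (0.23) and Nid2 (-0.43) did not pass the fold. Relative to genes of like length, whose medians here were between -0.32 and -0.21, Nid1 at -1.13 was lower and Lama5 at 2.53 was higher, among 8464 genes of which 13.6% were lower and 15.1% higher. Without barcodes found in both libraries, which left 106 knockout and 2830 WT fibroblasts, Nid1 was at -1.41, Lamc1 at -0.66, Hspg2 at -0.64 and Lama5 at 2.34.

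The Nid1 ratio was smaller within fibroblast subtypes, whose proportions differed between the libraries. Adventitial fibroblasts, marked by Pi16 and Dpp4, were 49 of the 165 knockout and 1873 of the 2898 WT fibroblasts, and myofibroblast-like cells 89 knockout and 937 WT cells. Nid1 stood at 1020 CPM in knockout and 1383 CPM in WT adventitial cells, a log2 ratio of -0.44, and at 319 CPM in knockout and 657 CPM in WT myofibroblast-like cells, a log2 ratio of -1.04. Nid1 was higher in adventitial than in myofibroblast-like cells in both libraries, and in myofibroblast-like cells its ratio relative to genes of like length was -0.70. The part of the subtype mix in the fibroblast ratio was not tested. Without shared barcodes, 20 knockout and 1836 WT adventitial cells remained, with Nid1 at -0.47, and 84 knockout and 931 WT myofibroblast-like cells, also at -1.04. In myofibroblast-like cells Hspg2 was at -0.73 and Lamc1 at -0.60, whereas in adventitial cells Hspg2 was at -0.20 and Lamc1 at -0.32, with intervals on both sides of 0. Relative to genes of like length the myofibroblast-like ratios were -0.45 for Hspg2 and -0.23 for Lamc1, short of the fold used. The shares of all genes lower or higher within fibroblast subtypes are not given. Lamb2 was higher in adventitial cells, at 175 CPM in the knockout and 109 CPM in WT (0.68), the knockout level resting on 32 UMIs.

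The Lama5 difference in fibroblasts lay in few cells. Knockout fibroblasts held 25 Lama5 UMIs in 14 cells and WT fibroblasts 92 UMIs. The keratins Krt8 and Krt18 together stood at 105 CPM in knockout and 19.9 CPM in WT fibroblasts, and 34 knockout and 280 WT fibroblasts held a UMI of either. Those cells held 21 of the 25 knockout UMIs of Lama5, at 37.5 CPM, and 21 of the 92 WT UMIs, at 7.04 CPM. In the 131 knockout and 2618 WT fibroblasts without a keratin UMI, Lama5 stood at 4.52 CPM in the knockout and 3.07 CPM in WT, a log2 ratio of 0.56 (-1.35 to 1.98) that did not pass.

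In Krt8/Krt18 positive cells, the deepest class, 2 members were lower and 0 higher, among 8862 genes of which 18.1% were lower and 5.12% higher. Hspg2 was at -0.66 (-0.69 to -0.63) from 20702 knockout and 16434 WT UMIs. Nid1 was at -2.06 (-2.47 to -1.67), from 79 UMIs in 6511 knockout cells and 166 UMIs in 3594 WT cells. Relative to genes of like length Nid1 at -1.64 remained lower and Hspg2 at -0.22 did not, among 8514 genes of which 5.73% were lower and 7.24% higher. The 12 fibroblast markers summed to 79.7 CPM in knockout and 189 CPM in WT cells of this class, and the part of stromal RNA in the low Nid1 level was not tested. After subtraction of free RNA no positive level of Nid1 was left. Lama5 (-0.50), Lamb2 (-0.49), Lamc1 (-0.33) and Lamb1 (-0.07, and 0.17 with TMM scaling) were lower by less than the fold used. Relative to genes of like length Lama5 was at -0.06, Lamb2 at -0.06, Lamc1 at 0.11 and Lamb1 at 0.36. The genes for the chains of an alpha5 laminin thus differed by less than 1.5-fold between the libraries in this class.

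Other matrix genes of the endothelium were read from lists of related genes, of which the 3 with the firmest intervals per direction are named. Counts are read against the 34.9% of endothelial genes that were lower and the 10.4% that were higher, or the 10.7% lower and 14.7% higher relative to genes of like length. Of the network collagens and collagens XV and XVIII, 3 of 5 measured were lower and 0 higher. Col4a2 stood at 1535 CPM in knockout and 3047 CPM in WT endothelial cells (-0.99), Col4a1 at 2144 CPM in the knockout and 4108 CPM in WT (-0.94) and Col15a1 at 422 CPM in the knockout and 694 CPM in WT (-0.72). Relative to genes of like length 0 of the 5 were lower or higher, as was the case for Hspg2 and Nid1, whose products bind collagen IV. Of 2 other laminin-related genes measured, the netrin gene Ntn1 was lower, at 6.92 CPM in the knockout and 21.0 CPM in WT. Of 13 other basement membrane genes 4 were lower and 1 higher: Vwf, for von Willebrand factor, was at -1.20, Mmrn2, an endothelial multimerin, at -1.10 and Tinagl1, a laminin-binding matrix protein, at -1.03, while the fibronectin gene Fn1 was at 0.70, with 694 CPM in the knockout and 426 CPM in WT. On the relative scale 2 of the 13 were lower and 1 higher, Vwf (-0.41) not among them.

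Of 18 laminin and basement membrane receptors measured in endothelial cells 7 were lower, a share near that of all genes, and 2 higher. Bcam, a receptor for the alpha5 chain, stood at 31.9 CPM in the knockout and 103 CPM in WT, a log2 ratio of -1.68 and of -1.54 relative to genes of like length. Itga6, a laminin-binding integrin chain, was at -1.02 and Mcam, a binder of the alpha4 chain, at -0.86, but neither passed the fold on the relative scale. The syndecans Sdc4 (0.82) and Sdc2 (1.25) were higher, Sdc2 on 19 knockout and 12 WT UMIs. On the relative scale 1 receptor was lower and 5 were higher.

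Of 13 proteases and inhibitors in endothelial cells 6 were lower and 2 higher. Timp3, an inhibitor held in the matrix, stood at 245 CPM in the knockout and 863 CPM in WT (-1.82, and -1.19 relative to genes of like length). Adamts1, a protease that cleaves proteoglycans, was at -0.94. The stromelysin gene Mmp3 was at -3.32 on 2 knockout and 30 WT UMIs. Ctsl, for cathepsin L, stood at 907 CPM in the knockout and 532 CPM in WT (0.77), and Timp1 was at 0.60. On the relative scale 2 of the 13 were lower and 3 higher, with Adamts1 (-0.30) and Timp1 (0.13) not among them. Ctsl was higher also in Krt8/Krt18 positive cells (0.83) and in mural cells (0.60, 0.02 to 1.15), there on 38 knockout UMIs. In fibroblasts Ctsl was not higher on the library scale, where Timp1 was the only gene of this list that was. Of 13 genes that build or trim heparan sulfate, the chains that perlecan carries, 7 were lower and 0 higher, and relative to genes of like length 1 was lower and 1 higher. Xylt2, which starts the chains, was at -1.86, Sulf1, which trims them, at -2.41 on 3 knockout UMIs, and Ext2, which extends them, at -0.83.

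In fibroblasts, where 17.3% of genes were lower and 16.4% higher, the collagens went against Nid1 and Hspg2. These ratios are over the whole class, where myofibroblast-like cells made up 53.9% of knockout and 32.3% of WT fibroblasts. Adventitial cells made up 29.7% of knockout and 64.6% of WT fibroblasts. The part of this subtype mix in the ratios of the listed genes was not tested. Of 6 network collagens and collagens XV and XVIII, 3 were higher and 0 lower: Col15a1 stood at 935 CPM in the knockout and 419 CPM in WT (1.16), Col8a1 at 425 CPM in the knockout and 167 CPM in WT (1.34) and Col18a1 at 119 CPM in the knockout and 52.6 CPM in WT (1.18). Among other laminin-related genes Lamc3 was higher (3.73) and Ntn4 was lower (-0.74). Of 15 other basement membrane genes 2 were higher and 4 lower, led by the fibulin genes Efemp1 (-1.89) and Fbln1 (-1.39). Of 20 receptors 6 were higher and 3 lower; Itgb4, an integrin chain of epithelia, at 3.71, Itga6 at 2.23 and Mcam at 1.83 were among the higher, on 13, 45 and 58 knockout UMIs. Of 15 proteases and inhibitors 7 were lower and 1 higher, with Mmp3 at -1.81 and Timp1 at 1.17. Of 14 heparan sulfate genes 4 were lower and 1 higher, with Ext1 at -0.98 and Hs6st1 at 1.25. On the relative scale 4 collagens were higher and 0 lower, 3 other basement membrane genes were higher and 3 lower, 7 receptors were higher and 3 lower, 1 protease or inhibitor was higher and 6 lower, and 1 heparan sulfate gene was higher and 2 lower. Scaled to total UMIs, the counts held without barcodes found in both libraries, except that 7 receptors were higher and 4 lower. Relative counts are not given for these cells. On the same library scale, without fibroblasts that had a keratin UMI, 4 receptors were higher and Itgb4 fell under 20 UMIs. Itga6 was then at 1.27 and Mcam at 0.83, while the collagens still gave 3 higher and 0 lower.

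The same lists were read in mural cells, where 13.5% of genes were lower and 8.05% higher. Of the collagens 2 of 5 collagens were lower (Col4a2 at -1.23 and Col4a1 at -0.88) and Col8a1 was higher at 1.76, while 5 of 15 receptors were lower, led by Itga7 (-2.56), a laminin-binding integrin of muscle. Of 10 proteases and inhibitors 2 were lower and 2 higher, with Timp1 at 906 CPM in the knockout and 211 CPM in WT, and of 6 heparan sulfate genes 1 was lower and of 6 other basement membrane genes 0. On the relative scale 0 collagens were lower and 3 higher, and 2 receptors were lower and 1 higher. Of proteases and inhibitors 1 was lower and 4 higher, and of other basement membrane genes 0 were lower and 2 higher. Of heparan sulfate genes 0 were lower or higher, and of all mural genes 5.49% were lower and 9.73% higher on that scale. In Krt8/Krt18 positive cells 0 of 6 collagens were lower or higher, and 3 of 20 receptors were lower, among them Itga7 (-0.67) and Ddr2 (-0.63), with 18.1% of all genes lower. Of 14 heparan sulfate genes 5 were lower, with Hs6st2 at -2.69 and Sulf1 at -2.41, of 15 other basement membrane genes 4 were lower, with Efemp1 at -4.44, and of 15 proteases and inhibitors 2 were lower, with Mmp2 at -2.45, and 1 higher. Efemp1, Mmp2, Sulf1 and Hs6st2 all stood under 1 CPM in the knockout cells. On the relative scale 3 heparan sulfate genes and 3 other basement membrane genes were lower, and 0 of either list higher. Of proteases and inhibitors 2 were lower and 2 higher, and of receptors 0 were lower and 1 higher. Of all genes in this class 5.73% were lower and 7.24% higher on that scale.

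The genes most like each member were found from log2(CPM + 10) over the 7 sums of a class and a library with at least 20 cells, among 8641 genes. Points of the same library share their depth and length trend, so the values are descriptive. Lama4 was nearest to Abhd16a (Pearson r = 0.997), Lama5 to Naa16 (0.992), Lamb1 to Mospd1 (0.997), Lamb2 to Tshz3 (0.989), Lamc1 to Man2b1 (0.996), Nid1 to Tcn2 (0.999), Nid2 to Pde4b (0.996) and Hspg2 to Ttyh3 (0.982). Among the members themselves Lamb1 and Nid2 (0.97), Lama4 and Lamc1 (0.96), Lamc1 and Nid1 (0.95) and Lama4 and Nid1 (0.95) were closest. Lama5 had negative values with Lamb2 (-0.65), Nid1 (-0.59), Lamc1 (-0.41) and Lama4 (-0.36).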

How the data were processed

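Per the labels and the submitters' processing notes, single-cell libraries were processed with Cell Ranger 2.1.1 and mm10; the authors deposited raw UMI counts per gene and barcode, with no normalisation, and no source used here names the annotation release. Every listed gene reached at least 4 UMIs in some barcode. Members and gene lists were chosen with earlier results of these data known. Barcodes with at least 200 genes, at most 10% mitochondrial UMIs and a simulated-doublet score of at most 0.3 were kept (148 knockout and 235 WT doublets removed).

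Cells were gated on summed marker CPM, with thresholds chosen after the marker sums, but no member, had been looked at: 2000 for 17 endothelial, 3000 for 11 mural and 5000 for 12 fibroblast markers, each with at least 3 detected, and 300 for Krt8 and Krt18. A cell over several gates needed a factor of 2 over the next, otherwise it was left out (39 knockout, 43 WT); 1034 knockout and 728 WT cells were over no gate. Each endothelial cell and fibroblast took the subtype whose markers, at least 2 of them detected, were highest relative to their mean over the class.

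Counts were summed per class and library over the 9127 shared symbols. Log2 ratios carry exact conditional binomial intervals for Poisson counts, levels exact Poisson intervals and shares Clopper-Pearson intervals, all at 95%. They cover counting error only, and for a level with a count of 0 the upper bound of the interval is given. No difference between genotypes was tested. Relative ratios subtract the median of the 300 genes of nearest transcript length (longest GENCODE vM21 transcript, found for 8771 symbols) with at least 20 UMIs, members left out. The code for ratios and calls was checked on simulated counts. Named genes were the members, up to 3 genes per list, class and direction by the interval bound nearest 0, and the nearest genes by correlation, of which the first is printed. Alternatives covered gates, filters, scaling, length, free RNA, thinning and left-out cells. Tools were edgeR 4.0.16 in R 4.3.3 (TMM factors only), and in Python 3.11.15 scanpy 1.11.5 with leidenalg 0.10.2, scipy 1.17.1, matplotlib 3.10.9, pandas 2.3.3, numpy 2.4.6 and scikit-learn 1.9.0.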

Additional observations from a re-analysis of the deposited data

Results flagged for a closer look

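Lama5 had opposite signs in 2 cell classes: its log2 ratio of knockout over WT was 2.30 in fibroblasts and -1.08 in endothelial cells. The difference between the classes was not tested. Of the 25 Lama5 UMIs of knockout fibroblasts 21 lay in the 34 cells that also held a Krt8 or Krt18 UMI. In fibroblasts without one the ratio was 0.56, with an interval on both sides of 0.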

How the results depend on the processing

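No paired analysis was possible because each genotype had 1 library. Over all alternatives the endothelial count of members lower in the knockout lay between 1 and 7 around 5, and it was 1 under both length scalings, against genes of like length or of at least 5000 bases. There Lamc1 turned sign, to 0.034 and 0.020, as did Lama4 (0.18 and 0.26), Lamb1 (0.27 and 0.31) and Nid2 (0.27 and 0.37), which had not passed the fold. In mural cells the count of 5 became 0 under both length scalings, where Hspg2 turned to 0.14 and 0.037, 1 when cells over more than 1 gate were left out, 2 with TMM scaling, 3 at 5% mitochondrial UMIs and 3 with the mean of per-cell CPM. With clusters in place of the gate 1 mural member, Lama5, was higher. In fibroblasts the count of 3 lower became 1 under both length scalings, and the 1 higher became 0 with the mean of per-cell CPM, with thinning and without cells that have a keratin UMI; that last choice, and leaving out barcodes in both libraries, were made after seeing the data. In Krt8/Krt18 positive cells the count of 2 became 1 with TMM scaling, both length scalings, free RNA subtraction and the mean of per-cell CPM. Free RNA subtraction left no positive level for Nid1 there. The causes were not tested, except that the length scalings change the reference by construction. For per-cell means, equal weights and free RNA the interval width of the summed counts was used. Lamb2 in endothelial cells was lower in 17 of 17 alternatives, from -1.96 to -0.69, and Nid1 in fibroblasts in 17 of 17, from -1.47 to -0.72. No alternative joined a length scaling with the subtypes. Relative to genes of like length, Lamb2 was at -0.19 in tip-like, -0.43 in venous and -0.34 in arterial cells. These intervals lay on both sides of 0, and only in capillary cells, at -1.04, did Lamb2 pass the fold. TMM scaling set the zero of the log2 ratios at -0.32 in endothelial, -0.19 in mural, -0.02 in fibroblast and -0.23 in Krt8/Krt18 positive cells. Depth limits the 14 knockout mural cells, with at most 34 UMIs for any member.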

Other observations

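The 1034 knockout and 728 WT cells over no gate held mainly Lama5, Lamb1, Lamc1 and Hspg2 among the members. Lama5 stood at 85.0 CPM in the knockout and 104 CPM in WT, Lamb1 at 113 CPM in the knockout and 94.3 CPM in WT, Lamc1 at 99.9 CPM in the knockout and 125 CPM in WT, and Hspg2 at 230.2 CPM in the knockout and 294 CPM in WT. Lama4 had 5.75 CPM in the knockout and 3.45 CPM in WT, Nid1 0.74 CPM in the knockout and 7.63 CPM in WT, and Nid2 0.46 CPM in the knockout and 0.36 CPM in WT. These cells entered no comparison.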
